A study of Mus musculus with 44 samples.

Results

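How far single libraries differ from the others of their group, rather than how far the group means differ, was compared. The comparison was between mucosa lacking the beta subunit of the gastric proton pump and normal mucosa. Messenger RNA from the gastric corpus was sequenced in 44 libraries of mice on a BalbC background, aged 13 months. The groups were WT/PEG (11 libraries) and WT/NTZ (9 libraries) from wild-type mice, and KO/PEG (13 libraries) and KO/NTZ (11 libraries) from HKATPase knockout mice, with totals of 6065084 to 21945124 counts per library. NTZ is netazepide, formerly YF476, a blocker of the gastrin receptor, and PEG is the vehicle in which it was injected. The genes compared were all those with a mean level of 5 CPM or more (CPM being counts scaled to a common library total) both in the 24 KO and in the 20 WT libraries, which held for 10023 of the 31517 genes with a summed estimated count. Spread is given as the SD of log2 CPM between libraries, each around the mean of its own group, pooled over the PEG and NTZ groups of a genotype.

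The gastric corpus is lined by surface mucous cells and by glands of acid-secreting parietal cells, pepsinogen-secreting chief cells, mucous neck cells and endocrine cells. The proton pump of the parietal cell is built from an alpha and a beta subunit, encoded by Atp4a and Atp4b, and a mouse that lacks either secretes no acid. Such a mouse releases excess gastrin, and its mucosa thickens, loses mature parietal and chief cells and gains mucous cells of spasmolytic polypeptide-expressing metaplasia (SPEM).

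The deletion is carried by every cell of the KO mice and by both KO groups. The samples are bulk tissue, in which fewer cells of a type and less RNA per cell cannot be told apart. Libraries are named here as labelled, where YF stands for NTZ. Some share an animal number, namely WT_172_WT_PEG_1 with WT_172_WT_PEG_2, and KO_110_KO_PEG with KO_110_KO_YF, and the study describes fewer KO/PEG mice than there are KO/PEG libraries. Each library was counted as 1 sample, and the p-values measure the spread between libraries, which may in part be technical.

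The targeted gene followed the labels. Atp4b was between 2860 and 5760 CPM in WT/PEG (median 3830) and between 2120 and 5130 CPM in WT/NTZ (median 3680), and between 2.35 and 17.1 CPM in KO/PEG (median 5.76) and 4.2 and 40.8 CPM in KO/NTZ (median 7.41). The highest KO library was far below the lowest WT library. The tested members of the parietal, chief and surface mucous lists had median mean levels of 9.04, 10.15 and 10.78 log2 CPM in WT/PEG, so these markers of corpus mucosa were present. The 14 squamous genes tested, of 30 listed, mark the forestomach rather than the corpus. Their mean level was 0.37 to 5.89 log2 CPM in WT/PEG and 0.29 to 8.26 in WT/NTZ. Some libraries thus held these squamous transcripts and others almost none.

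Gene expression was more variable between KO libraries than between WT libraries for most genes. Of the 10023 genes, 8822 (88%) had the larger variance in KO, and the median of the ratio of variances was 1.40 on the log2 scale, or 2.64-fold. The median SD of a gene was 0.333 in KO and 0.197 in WT. The groups were ordered by median SD as WT/PEG (0.189), WT/NTZ (0.194), KO/NTZ (0.304) and KO/PEG (0.346). A total of 209 genes had an SD above 1 in KO and 92 in WT. Tested gene by gene on the size of the deviations (limma, adjusted p under 0.05), 4145 genes (41.4% of those tested) had larger spread in KO and 89 (0.888%) had larger spread in WT. The plot of each gene's SD in KO against its SD in WT shows most genes above the line of equality, with squamous and interferon-stimulated genes below it.

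**Figure D1:**
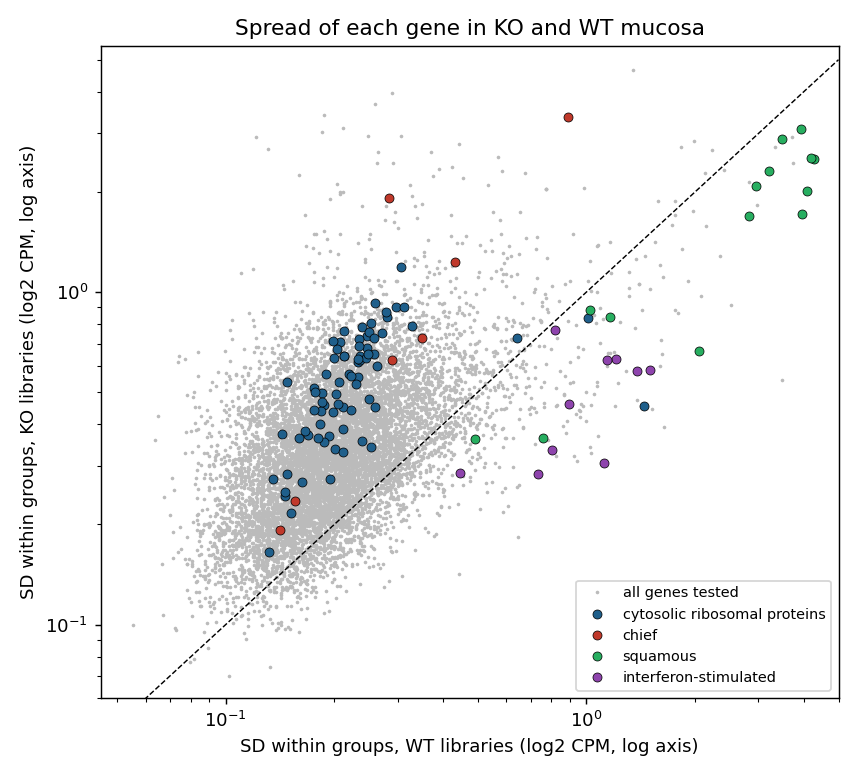
SD of log2 CPM within groups for each of the 10023 genes, in WT libraries (horizontal, log axis) and in KO libraries (vertical, log axis), with 4 gene lists coloured and equality as a dashed line. Of all genes, 88% lie above the line, where chief cell and nearly all ribosomal protein genes lie, while the 14 squamous and 10 interferon-stimulated genes lie below it.

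Most genes also differed in mean level, which was higher in KO for 4349 genes (43.4%) and lower for 4049 (40.4%). Among the 4145 genes with larger spread in KO, the mean was higher in KO for 1646, lower for 2140 and not called for 359 (edgeR). Of the 89 genes with larger spread in WT, 26 (29.2%) were not called for the mean, against 16.2% of all genes tested. Limited to the 5560 genes whose means lay within 1.5-fold of each other, 84.9% had the larger variance in KO. Of these 5560, 1208 were called for spread in either direction, a smaller share than the 4234 called of all 10023. Between 4 and 5 CPM, just below the minimum level, 80.5% of 502 genes had the larger variance in KO, and between 5 and 6 CPM 78.2% of 467 did.

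The excess of spread in KO was also seen with the library as the unit. For each library, the squared deviation from its group mean was averaged over the 10023 genes. This mean squared deviation was 0.0506 to 0.121 in WT/PEG (median 0.0764), 0.0555 to 0.201 in WT/NTZ (median 0.109), 0.109 to 0.555 in KO/PEG (median 0.151) and 0.0752 to 0.451 in KO/NTZ (median 0.154). The genotypes overlapped, but 23 of 24 KO libraries lay above the WT median and 9 lay above the highest WT library. The KO libraries were 2.11-fold higher on average, a difference of 1.08 on the log2 scale (two-sided permutation test within arms, p = 4e-05). With PEG alone the difference was 1.32 (permutation test, p = 2e-05), and with NTZ alone 0.83 (exact permutation test over 167960 splits, p = 0.0393). The highest values were in KO_46_KO_PEG (0.555), KO_109_KO_PEG (0.499), KO_29_KO_YF (0.451) and KO_37_KO_YF (0.433).

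**Figure D2:**
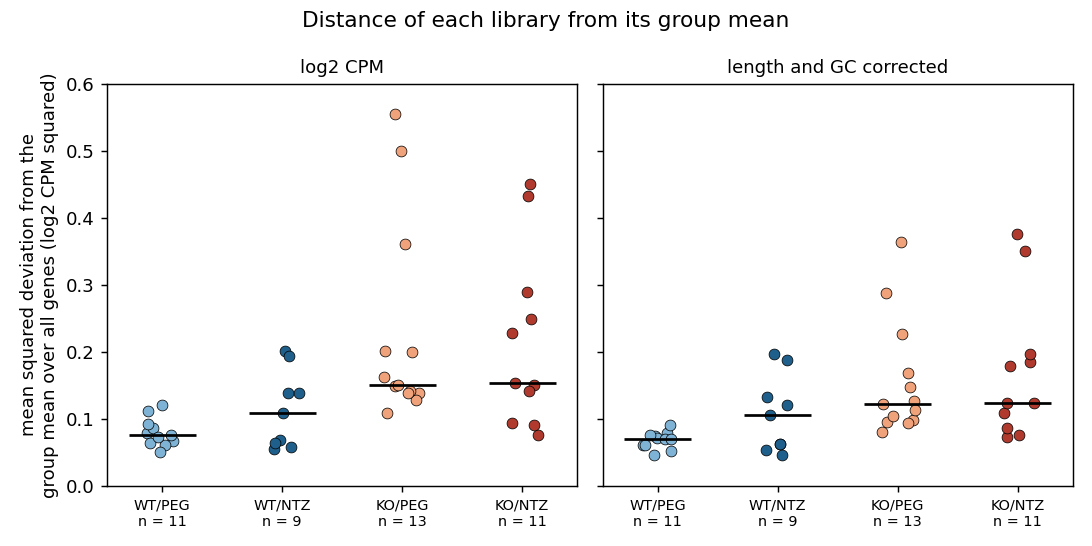
Mean squared deviation of each library from its group mean over 10023 genes (log2 CPM squared), from log2 CPM (left) and after correction for transcript length and GC content (right), with the median of each group as a line. The 13 KO/PEG libraries reach 0.555 and the 11 KO/NTZ libraries 0.451, against 0.121 in WT/PEG and 0.201 in WT/NTZ, and the group medians are lower after correction, 0.122 in KO/PEG and 0.0703 in WT/PEG.

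Most of the spread in KO lay along 1 axis, on which many genes moved together. The first principal component of the deviations held 54.1% of the within-group variance in KO and 25.5% in WT. Scores of the 24 KO libraries on this component followed the slope of each library's deviations on the GC content of the gene, with r = 0.97 and rho = 0.97 (permutation test, p = 1e-05 for both, the smallest that 100000 permutations can give, adjusted p = 3.33e-05 over 10 measures). Without the pair of libraries farthest from the median, r was 0.96, and within groups it was 0.98 in KO/PEG and 0.96 in KO/NTZ. Score and slope are made from the same log2 CPM values. The slope on transcript length was likewise related to the score (r = -0.92, rho = -0.94, permutation p = 1e-05 for both, adjusted p = 3.33e-05, r = -0.92 without 2 libraries). The slope on GC content ran from -0.0543 to 0.0514 log2 CPM per percent GC in KO and from -0.015 to 0.0152 in WT, and 18 of 24 KO libraries lay outside the WT range. The 500 genes at the end of the component that rose with the slope had a median transcript length of 925 bases and GC content of 56.2%, against 3900 bases and 44.3% at the other end and 2710 bases and 50.4% over all genes.

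The share of counts from mitochondrially encoded genes moved with the same component. It was 2.39 to 14.5% in KO/PEG, 1.88 to 7.04% in KO/NTZ and 5.83 to 11.8% in WT, and its correlation with the component was r = -0.81 and rho = -0.95 (permutation test, p = 1e-05 for both, adjusted p = 3.33e-05). Without the pair farthest from the median r was -0.87, and it was -0.79 in KO/PEG and -0.92 in KO/NTZ. Markers of mucous neck and SPEM cells were higher toward the GC-rich end (r = 0.75, rho = 0.74, permutation p = 4e-05 and 6e-05, adjusted p = 1e-04 and 0.00015, r = 0.8 without 2 libraries). Those of parietal cells were lower there over all KO libraries (r = -0.49, rho = -0.48, permutation p = 0.0156 and 0.0186, adjusted p = 0.0223 and 0.0266, r = -0.38 without 2 libraries), which was seen in KO/NTZ (r = -0.79) but was small in KO/PEG (r = -0.25). For smooth muscle genes the values over all KO libraries were near those of the parietal genes (r = -0.53, rho = -0.42, permutation p = 0.00869 and 0.0449, adjusted p = 0.0145 and 0.0561), and r was -0.38 without 2 libraries. By group r was -0.57 in KO/PEG and -0.48 in KO/NTZ. Without the 2 farthest libraries of each group, r for smooth muscle genes was -0.28 in KO/PEG and 0.27 in KO/NTZ. For parietal genes r was then 0.16 in KO/PEG and -0.69 in KO/NTZ. For squamous genes r was 0.39 and rho 0.53 (permutation p = 0.0542 and 0.009, adjusted p = 0.0678 and 0.018), with r = 0.69 in KO/PEG, 0.08 in KO/NTZ and 0.47 without 2 libraries. The total count per library fell along it in KO/NTZ (r = -0.79) more than in KO/PEG (r = -0.27). The mitochondrially encoded genes and the list genes are among the genes from which the component was made. Their correlations with it are therefore not independent tests and only describe the component. The part of RNA quality, depth or cell composition in this component was not tested.

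**Figure D3:**
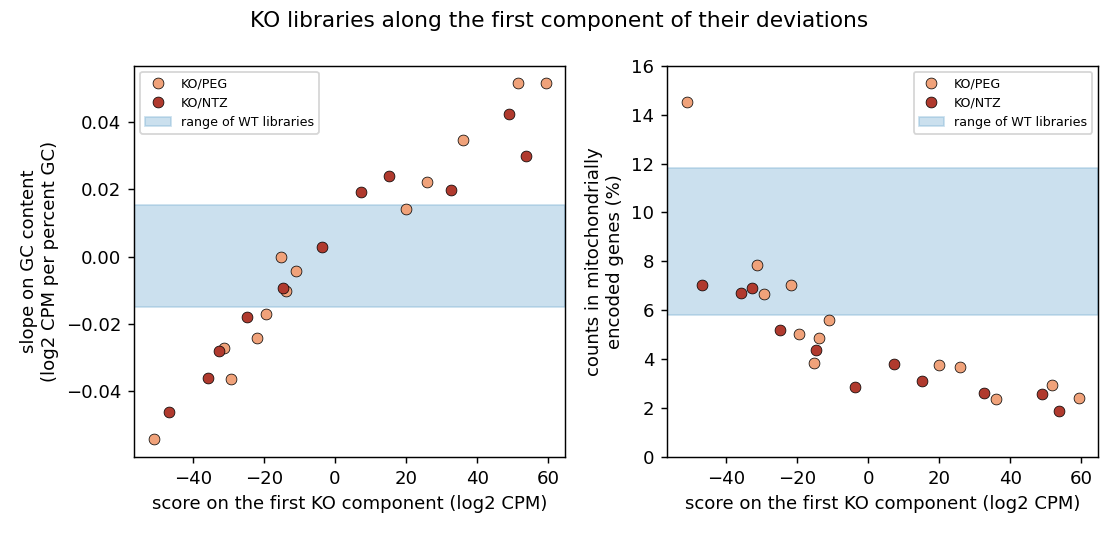
Score of each KO library on the first principal component of the deviations from group means (horizontal), against its slope on GC content (left) and its percentage of counts in mitochondrially encoded genes (right), with the range of the 20 WT libraries shaded. GC slope rises with the score (r = 0.97) and the mitochondrial share falls (r = -0.81), and 18 of 24 KO libraries lie outside the WT range of GC slope.

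The excess in KO was smaller after the trends with length and GC content were taken out of each library's deviations, a correction chosen after the data were seen. The larger variance was then in KO for 84% of genes, the median ratio was 2.2-fold, and 3242 genes (32.3%) had larger spread in KO and 113 (1.13%) in WT. Of the 4145 genes called before correction, 2353 (56.8%) were called again. Per library the difference was 0.84 on the log2 scale (permutation test, p = 0.00021), and with NTZ alone 0.63 (exact permutation test, p = 0.0953). With PEG alone 1942 genes (19.4%) were called in KO and 24 (0.239%) in WT, and with NTZ alone 1337 (13.3%) and 108 (1.08%). The first component of the uncorrected deviations held 54.1% of the variance in KO and 25.5% in WT, so its removal by itself lowers the excess in KO. With it removed in whole from each genotype, 64.9% of genes had the larger variance in KO, and 198 genes had larger spread in KO and 79 in WT. Of these 198, 196 had been called before, and of the 79, 39 had.

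Chief cell genes varied widely between KO libraries. Of the 7 genes tested, all had the larger variance in KO, 5 (71.4%) were called, and the median log2 ratio of variances was 2.23, against 41.4% called and 1.40 over all genes tested. For Rab3d, not called, 1 library held 75% of the squared deviations in KO, and the difference in mean absolute deviation was -0.018. Gif (chromosome 19, 11747554 to 11763447 on GRCm38), which encodes intrinsic factor, was 4080 to 7200 CPM in WT/PEG (median 6100), 3350 to 6890 in WT/NTZ (median 4990), 28.6 to 4180 in KO/PEG (median 962) and 50.6 to 2380 in KO/NTZ (median 399). The highest KO library lay within the WT/PEG range and the lowest were far below every WT library, and its SD was 1.92 in KO and 0.284 in WT (limma, adjusted p = 0.000223). The lowest library was KO_109_KO_PEG and the highest KO_143_KO_PEG. Chia1, an acidic chitinase, ranged from 7.58 to 14300 CPM in KO/PEG and from 18.9 to 11100 in KO/NTZ, against 7210 to 52000 in WT/PEG and 8990 to 50800 in WT/NTZ (SD 3.36 against 0.891, adjusted p = 9.95e-05, limma). Pgc, pepsinogen C, ranged from 1770 to 31200 CPM in KO/PEG and 83500 to 202000 in WT/PEG, with no overlap, and its SD was 1.23 in KO and 0.431 in WT (limma, adjusted p = 0.000186). With the first component removed in each genotype, 5 of the 7 genes were called, with Gif at an adjusted p of 6.2e-05 and Pgc at 0.00254 (limma). With it removed over all libraries, 3 of the 7 were called.

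Spread of mucous neck and SPEM genes went both ways. Of 15 tested, 5 (33.3%, against 41.4% of all genes) had larger spread in KO and 3 had larger spread in WT (0.888% of all genes), with a median log2 ratio of 0.55, or -0.18 after the length and GC correction. Without WT_103_WT_YF, 5 had larger spread in WT, and with the first component removed in each genotype 2 were called in KO and 1 in WT. Tff2 (chromosome 17, 31141049 to 31144282), the spasmolytic polypeptide that names the metaplasia, was 584 to 1330 CPM in WT/PEG (median 908), 852 to 1300 in WT/NTZ (median 983), 863 to 28100 in KO/PEG (median 10400) and 6840 to 29700 in KO/NTZ (median 12800). The library KO_46_KO_PEG lay within the WT range and the other KO libraries above it. Its SD was 1.32 in KO and 0.296 in WT (limma, adjusted p = 2.68e-05), and 1 against 0.283 with the first component removed (adjusted p = 0.0015). Gpx2, a glutathione peroxidase of epithelia, had an SD of 0.864 in KO and 0.265 in WT (limma, adjusted p = 0.000295), and Clu, clusterin, 0.586 and 0.201 (adjusted p = 0.0161). Gpa33, an antigen of intestinal epithelium, was the reverse: it was 25.4 to 89.9 CPM over the KO libraries but 0.316 to 8.83 in WT/PEG and 0.62 to 69.8 in WT/NTZ, where WT_118_WT_YF was highest (SD 0.392 in KO and 1.64 in WT, limma, adjusted p = 0.000597).

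Surface mucous genes had a median log2 ratio of 2.54, and 6 of 10 were called with larger spread in KO (41.4% of all genes). With the first component removed in each genotype 1 of the 10 was called, Gkn2, and with it removed over all libraries 0 (limma). Gkn2, a gastrokine secreted by these cells, was 30000 to 41300 CPM in WT/PEG, 22600 to 43600 in WT/NTZ, 4120 to 33700 in KO/PEG and 9010 to 24100 in KO/NTZ (SD 0.745 in KO and 0.23 in WT, limma, adjusted p = 0.00265). The KO/PEG libraries spanned from the WT range downward, and the log2 ratio of variances was 5.2 with PEG and 1.54 with NTZ (limma, adjusted p of the difference between arms = 0.848). Tff1, a trefoil peptide, had nearly the same mean in both genotypes (log2 difference 0.05), but was 14800 to 24900 CPM in WT/PEG and 5560 to 37500 in KO/PEG (SD 0.684 in KO and 0.278 in WT, limma, adjusted p = 0.0296, and 0.0647 without KO_32_KO_PEG). Without KO_46_KO_PEG, 3 of the 10 genes were called.

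Of 12 parietal genes, 6 (50%) had larger spread in KO, near the 41.4% of all genes, none had larger spread in WT, and the median log2 ratio was 1.66. With the first component removed in each genotype, 1 of the 12 was called, Atp4b. This is the deleted gene, with a mean of 9.53 CPM in KO, near the minimum level, against 3760 CPM in WT. Atp4a, the subunit left in the KO mice, was 6120 to 9300 CPM in WT/PEG and 1920 to 7070 in KO/PEG, and its SD over both arms was 0.498 in KO and 0.296 in WT (limma, adjusted p = 0.0757). Slc9a4, a sodium-proton exchanger, was 218 to 274 CPM in WT/PEG, 176 to 264 in WT/NTZ, 52.1 to 219 in KO/PEG and 32.6 to 179 in KO/NTZ (SD 0.806 in KO and 0.17 in WT, limma, adjusted p = 3.1e-05). Esrrg, an orphan nuclear receptor, had an SD of 1.04 in KO and 0.27 in WT (limma, adjusted p = 2.25e-05), with its lowest levels in KO_109_KO_PEG and KO_29_KO_YF. The first component held 91.2% of the KO variance of Slc9a4 and 84.5% of that of Esrrg. Endocrine genes had a median log2 ratio of 1.45, close to that of all genes, and 4 of 13 (30.8%) were called in KO, against 41.4% of all genes. Sst, somatostatin of D cells, was 283 to 608 CPM in WT/PEG and 35.4 to 430 in KO/PEG (SD over both arms 0.901 in KO and 0.327 in WT, limma, adjusted p = 0.00397), and its adjusted p was 0.00514 with the first component removed, when no other of the 13 was called.

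Genes of energy metabolism and translation had larger spread in KO in most members. Over all genes tested, 41.4% were called in KO and the median log2 ratio was 1.40. Of 77 nuclear genes of the respiratory chain, all had the larger variance in KO and 58 (75.3%) were called, with a median of 2.47. Of 76 cytosolic ribosomal protein genes, 65 (85.5%) were called with larger spread in KO and 1 in WT, with a median of 2.66. Rpl27a, of the large subunit, was 60 to 116 CPM in WT/PEG (median 77.5), 77.1 to 114 in WT/NTZ (median 89.6), 135 to 626 in KO/PEG (median 239) and 186 to 873 in KO/NTZ (median 347). All KO libraries lay above the WT libraries, with KO_46_KO_PEG and KO_25_KO_YF lowest and KO_109_KO_PEG and KO_29_KO_YF highest in their groups (SD 0.761 in KO and 0.213 in WT, limma, adjusted p = 1.61e-05). Of 13 mitochondrially encoded genes, 7 were called in KO (53.8%, near the 41.4% of all genes). The order of libraries was the opposite for mt-Co1, a subunit of cytochrome oxidase. It was lowest in KO_109_KO_PEG (1670 CPM) and KO_29_KO_YF (915 CPM) and highest in KO_46_KO_PEG (20000 CPM) and KO_25_KO_YF (10200 CPM). The first component held 95.6% of the KO variance of mt-Co1 and a median of 76.3% over the 13 genes. It held 0.346% for mt-Nd3, 4.1% for mt-Nd6 and 12.2% for mt-Co2, so not all members followed it. After removal of the first component from each genotype, 0 respiratory chain, 0 mitochondrially encoded and 0 ribosomal protein genes were called in KO (limma, with 10, 1 and 2 at an unadjusted p under 0.05), and the median log2 ratios were 0.66, -0.27 and -0.54. In WT, 3 ribosomal protein genes were then called, Rpl34, Rps27 and Rpl28 (limma, adjusted p = 0.000714, 0.00125 and 0.0443).

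Of 18 reference genes commonly used to scale expression, 10 (55.6%, against 41.4% of all genes) had larger spread in KO, none had larger spread in WT, and the median log2 ratio was 1.86. With the first component removed in each genotype 0 were called (limma, with 1 with larger spread in KO at an unadjusted p under 0.05), and the difference in spread turned direction for Gapdh, Ppia and Rplp0. Rpl13a, Gapdh, Ppia, Hprt, Rplp0, Tbp, Eef1a1, Sdha and Eef2 were among those called. Gapdh, the glycolytic enzyme, was 200 to 357 CPM in WT/PEG and 334 to 1210 in KO/PEG (SD 0.593 in KO and 0.222 in WT, limma, adjusted p = 0.000217), and Ppia, cyclophilin A, 349 to 580 and 412 to 1610 (SD 0.529 and 0.206, adjusted p = 0.000902). Actb (SD 0.44 in KO and 0.263 in WT), B2m (0.251 and 0.531), Gusb (0.212 and 0.145), Ywhaz (0.141 and 0.119), Pgk1 (0.256 and 0.231), Polr2a (0.231 and 0.252) and Tfrc (0.419 and 0.395) were among those that did not pass the test. The genes of smallest variance over the KO libraries were Smap2, a regulator of vesicle traffic (SD 0.0702 in KO and 0.102 in WT), and Xpo6, the actin exporter (0.0745 and 0.133, limma, adjusted p = 0.0424). In WT they were Pitpnb, a lipid transfer protein (0.0553 in WT and 0.1 in KO), and Ptpn9, a tyrosine phosphatase (0.0638 and 0.358, limma, adjusted p = 7.74e-06). The Xpo6 call held in 17 of 44 fits with 1 library left out. Smap2, Xpo6, Pitpnb and Ptpn9 were picked by these variances, so tests of their spread are not independent of the choice.

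Among the other lists, smooth muscle genes had a median log2 ratio of 1.91 with 9 of 14 (64.3%) called in KO, and collagen and fibroblast genes 1.13 with 6 of 17 (35.3%), against 41.4% of all genes. Myh11, smooth muscle myosin, ranged from 59.3 to 623 CPM in KO/PEG and 404 to 813 in WT/PEG (SD over both arms 0.865 in KO and 0.286 in WT, limma, adjusted p = 0.00162). The smooth muscle list had 5 called genes without KO_52_KO_PEG, KO_29_KO_YF or KO_37_KO_YF, each left out alone, and the collagen and fibroblast list had 10 without WT_86_WT_YF. Folding factors of the endoplasmic reticulum had 8 of 17 called (47.1%) and a median of 0.85, and 5 called without KO_29_KO_YF. Immediate early genes had 5 of 16 called (31.2%) and a median of 0.77, and 3 called in several fits with 1 library left out, such as that without WT_121_WT_PEG. With the first component removed in each genotype, 1 smooth muscle gene and no collagen and fibroblast, folding factor or immediate early gene were called in KO. Of the genes of dividing cells, 0 of 23 cell cycle genes passed the test (limma, with 3 at an unadjusted p under 0.05), the median log2 ratio was 0.42, below that of all genes, and 20 of the 23 had the larger variance in KO. Without WT_118_WT_YF, 5 of them were called. Clock and Arntl, partners in the circadian activator, were called (SD 0.62 against 0.183 and 0.947 against 0.318, limma, adjusted p = 3.12e-05 and 0.00141), but the median of the 11 circadian genes was -0.14. Of 4 erythrocyte genes, the haemoglobin genes Hbb-bt and Hba-a2 were called (limma), and 0 were called without KO_46_KO_PEG or without KO_52_KO_PEG. Of 6 pancreatic enzyme genes 3 were called in KO (50%, median 1.64). Of 15 sterol synthesis genes 3 were called (20%, median 0.83), and 1 without KO_109_KO_PEG or KO_111_KO_PEG and 6 without WT_120_WT_PEG. Of 12 heat shock genes 2 were called (median 0.62), and of 6 mast cell genes 1 (median 0.59), and with 1 library left out the counts were 1 to 2 in both lists. No call was made (limma) among 7 adipose genes (median 0.44), 7 macrophage genes (-0.31) or 2 skeletal muscle genes (0.47), of which 1 adipose gene had an unadjusted p under 0.05, and none of 15 T cell genes reached the minimum level.

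**Figure D4:**
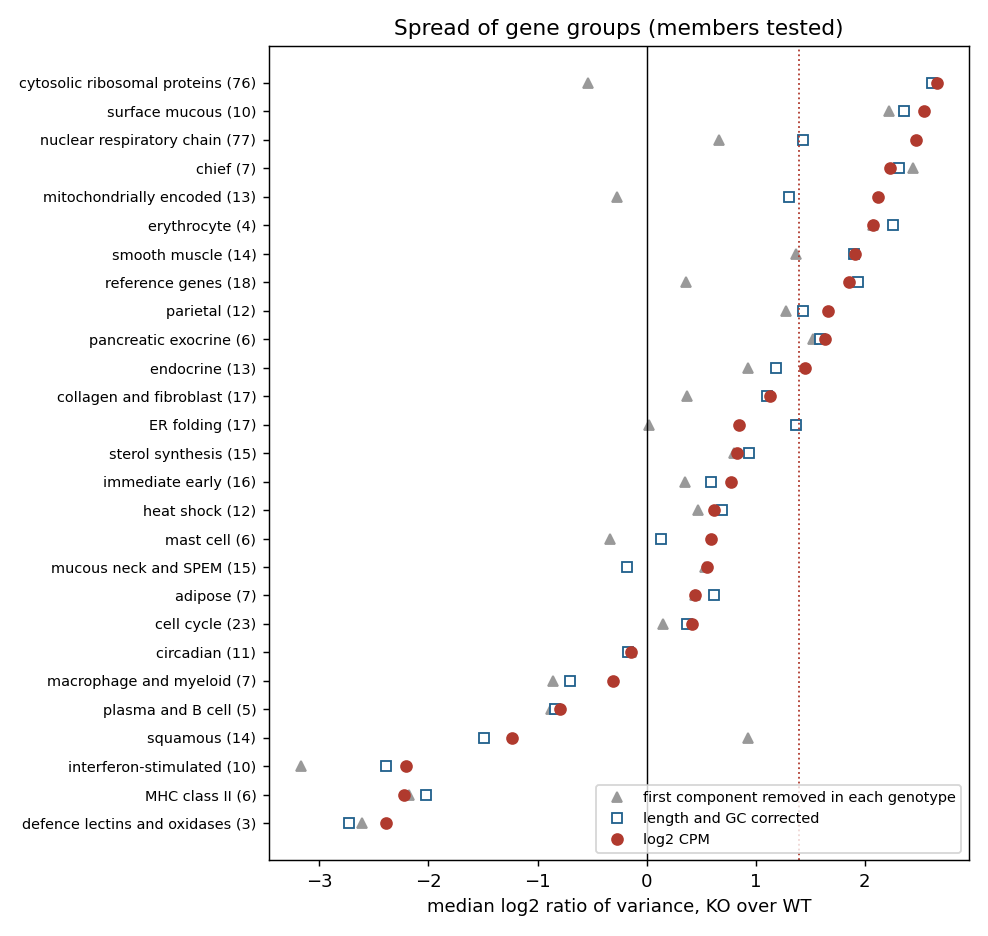
Median log2 ratio of variance, KO over WT, for each gene list with at least 3 genes tested (number in brackets), from log2 CPM (circles), after length and GC correction (squares) and with the first component removed in each genotype (triangles), with the median of all genes as a dotted line. Ribosomal protein, surface mucous and respiratory chain genes lie highest at 2.47 to 2.66, and interferon-stimulated, MHC class II and defence genes lie lowest, below -2.

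Interferon-stimulated and squamous genes formed the opposite group, with larger spread between WT libraries. Of 10 interferon-stimulated genes, 8 had larger spread in WT and none in KO, with a median log2 ratio of -2.21. Over all genes tested, 0.888% were called in WT and 41.4% in KO, and the median log2 ratio was 1.40. Irf7 (chromosome 7, 141262706 to 141266481), the transcription factor that amplifies type I interferon production, was 4.2 to 17.7 CPM in WT/PEG (median 6.31), 6.68 to 127 in WT/NTZ (median 12.4), 14.9 to 30.7 in KO/PEG (median 22.4) and 16 to 31.7 in KO/NTZ (median 19.2). Only WT_86_WT_YF and WT_118_WT_YF lay above the highest KO library, and the other 18 WT libraries were at or below 19.7 CPM (SD 0.307 in KO and 1.12 in WT, limma, adjusted p = 0.00167). Isg15, an interferon-induced modifier protein, reached 116 CPM in WT_86_WT_YF (SD 0.583 and 1.5, limma, adjusted p = 0.0104, and 0.0553 without that library). Without WT_86_WT_YF and, apart, without WT_118_WT_YF, 2 of the 10 genes were called. The list level of MHC class II genes, which present antigen, was also highest in WT_118_WT_YF (8.38 log2 CPM, WT/NTZ median 4.78) as was that of plasma and B cell genes (7.69, median 4.97), but 0 of 6 and 0 of 5 of these genes were called in either direction (limma, with 0 at an unadjusted p under 0.05).

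Of 14 squamous genes that passed the minimum level, of 30 listed, 9 had larger spread in WT and none in KO. Over all genes tested, 0.888% were called in WT and 41.4% in KO. Against a median log2 ratio of 1.40 over all genes, that of the squamous genes was -1.23. Their median SD was large in both genotypes, 1.87 in KO and 3.08 in WT. Krt13 (chromosome 11, 100117327 to 100121566), a keratin of the oesophagus and forestomach, was 0.177 to 192 CPM in WT/PEG (median 0.691), 0.369 to 1710 in WT/NTZ (median 334), 1.14 to 226 in KO/PEG (median 20.3) and 20.3 to 347 in KO/NTZ (median 76.4). In WT, 9 libraries were at or below 3.13 CPM and the other 11 at or above 16.8 CPM (SD 1.72 in KO and 3.96 in WT, limma, adjusted p = 0.000182). Krt4, its partner, was at 0 in some WT libraries and at 1060 CPM in WT_117_WT_YF, and the list level was highest in WT_117_WT_YF and lowest in WT_93_WT_YF. The part of squamous tissue within the samples in these calls was not tested. With the first component removed in each genotype, the list median was 0.93 and 1 of 14 genes was called, with larger spread in WT. With it removed over all libraries, 6 were called in WT and 0 in KO. The first WT component had its lowest score in WT_117_WT_YF (-20.5) and its highest in WT_93_WT_YF (31.5), which were also the ends of the list level. Removing that component can thus take out squamous spread itself. Of 3 defence genes tested, 2 had larger spread in WT (0.888% of all genes), and the median log2 ratio was -2.39. Duoxa2 and Duox2, which form the epithelial hydrogen peroxide-producing oxidase, were these 2 (SD 1.6 against 0.601 and 1.22 against 0.534, limma, adjusted p = 0.0128 and 0.0277, and for Duox2 0.0824 without WT_172_WT_PEG_1). Duoxa2 was 80.1 to 333 CPM over the KO libraries and 0 to 15.7 in WT, with no overlap.

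Some genes were near or at 0 in part of the libraries of 1 genotype. Among the genes of smallest p, Dynlt1-ps1, a processed pseudogene (chromosome 6, 135349408 to 135349749), was 16 to 29.9 CPM in every WT library, at 0 in 10 KO libraries and at 8.08 to 33 CPM in the other 14 (SD 3.67 in KO and 0.259 in WT, limma, adjusted p = 2.56e-19). These 10 libraries, 5 KO/PEG and 5 KO/NTZ, were the same 10 that had a score above 0 on the first component. Of all genes, Dynlt1-ps1 had the weight of largest size in that component (-0.0954), so its zeros help to set the scores. The mitochondrial share of these 10 libraries was 1.88 to 3.81%, and that of the other 14 KO libraries 2.88 to 14.5%. Eif4a-ps4 was at 0 in 13 KO libraries and Gm9531 in 9. Of 8 genes at 0 in at least 5 KO libraries and no WT library, 6 were pseudogenes, whose reads are shared with their parent genes when counts are estimated, so that their levels are uncertain. Nup62 (chromosome 7, 44816088 to 44830812), a protein of the nuclear pore, was 16.6 to 26.2 CPM in WT, 0.173 to 2.76 CPM in 8 KO libraries and 13.5 to 27.9 CPM in the other 16, with none between (SD 2.12 and 0.203, limma, adjusted p = 8.22e-07). Of the 8, 6 were among the 10 libraries above. The Nup62 locus overlaps Il4i1 on the same strand and Atf5 on the other, and its level is uncertain where the counting could split the reads.

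Other genes split the WT libraries into a low and a high set, and the sets differed from gene to gene. Gm6166, a processed pseudogene on chromosome 9 (57483963 to 57484371), was at or below 1.35 CPM in 8 WT libraries (3 WT/PEG and 5 WT/NTZ), at or above 54.8 CPM in the other 12, and between 54.9 and 317 CPM in every KO library (SD 0.545 in KO and 3.49 in WT, limma, adjusted p = 5.95e-09). WT_172_WT_PEG_1 was among the low and WT_172_WT_PEG_2 among the high libraries, although they share an animal number. Rpl34, a ribosomal protein of the large subunit, was at 11 to 11.3 CPM in 5 WT libraries and 55.4 to 192 CPM in the other 15 (SD 0.453 and 1.44, limma, adjusted p = 0.000486), and 3 of these 5 were also among the 8 for Gm6166. Cyp3a13, a cytochrome P450, was at 10.6 to 15.4 CPM in 11 WT libraries and 33.7 to 54.6 in 9 (adjusted p = 0.000289), while KO libraries stayed between 6.78 and 23.7 CPM. Bglap3, an osteocalcin-related gene, and Akap13, a kinase anchor, were called as well (limma, adjusted p = 7.73e-05 and 0.000187).

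**Figure D5:**
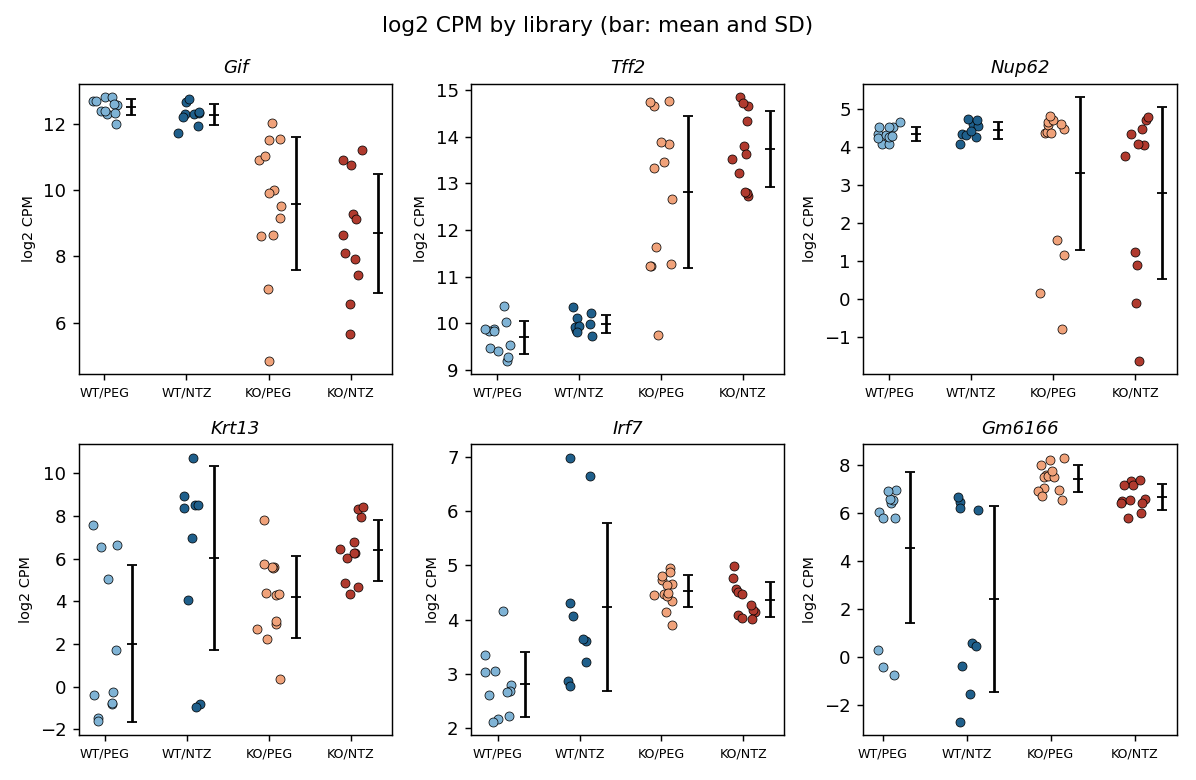
log2 CPM of 6 genes in each library by group, with the mean and SD of the group as a bar. Gif and Tff2 are spread in KO (SD 1.92 and 1.32) and Nup62 splits into 8 low and 16 high KO libraries, while Krt13, Irf7 and Gm6166 are spread in WT (SD 3.96, 1.12 and 3.49).

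The genotypes were also compared within each arm. With PEG, 3151 genes (31.4%) had larger spread in KO and 21 (0.21%) in WT, and with NTZ 1430 (14.3%) and 92 (0.918%). The number called with NTZ in either direction was 766 without KO_37_KO_YF and 777 without KO_29_KO_YF, and 0 with the group median as centre (limma, with 2241 at an unadjusted p under 0.05), against 1367 with PEG. In both arms 1052 genes were called in KO and 8 in WT. The arms share no library. The difference between arms was called for 4 genes (0.00998% with the larger excess under NTZ and 0.0299% with the smaller). Nr4a1, an immediate early nuclear receptor, had a log2 ratio of variances of 2.26 with PEG and -2.34 with NTZ (limma, adjusted p = 0.0106), and Tmem45a, a transmembrane protein, 2.75 and -2.68 (adjusted p = 0.0106). Nr4a1 was 6.16 to 86.8 CPM in KO/PEG, 6.7 to 24.2 in KO/NTZ, 4.52 to 18.6 in WT/PEG and 2.3 to 24.3 in WT/NTZ.

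Few genes differed in spread between NTZ and PEG within a genotype. Between KO/NTZ and KO/PEG, which share no library, 16 genes (0.16%) had larger and 23 (0.229%) smaller spread with NTZ. The number in either direction was 15 without KO_29_KO_YF and 90 without KO_109_KO_PEG, and 0 with the group median as centre (limma, with 624 at an unadjusted p under 0.05). Cd177, a neutrophil antigen, was 14.7 to 241 CPM in KO/PEG (median 52.9) and 17.3 to 40.4 in KO/NTZ (median 24.3; limma, adjusted p = 0.00304). Pga5, a pepsinogen, was 41.3 to 1830 CPM in KO/PEG (median 272) and 258 to 377 in KO/NTZ (median 309), so that the medians were close while the range was narrow with NTZ (limma, adjusted p = 0.00304). Dcbld1, a membrane protein, was the opposite, at 0 in 4 KO/NTZ libraries and in no KO/PEG library (limma, adjusted p = 0.000166). In WT, 2 genes (0.02%), Gm20721 and Tmem45a, had larger spread with NTZ and 0 (0%) smaller (limma, with 309 genes at an unadjusted p under 0.05). The WT count was 0 with the group median as centre (138 at an unadjusted p under 0.05), and 0 to 16 with 1 library left out, highest without WT_98_WT_YF. After the length and GC correction, 15 genes (0.15%) had larger and 12 (0.12%) smaller spread in KO/NTZ than in KO/PEG, 5 (0.0499%) had larger spread in WT/NTZ than in WT/PEG, and the arms differed for 2 genes (0.02%) with the larger excess under NTZ and 4 (0.0399%) with the smaller.

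Larger spread in KO was found over the whole range of levels. From the lowest to the highest quintile of mean CPM, the median log2 ratio went from 0.96 to 1.79 and the share called in KO from 26.5 to 52.5%. The quintile of genes with the lowest GC content had a median of 2 and 59.7% called, against 1.16 to 1.47 in the other quintiles. Genes of larger spread in KO were 36.1 to 50% of the tested genes of each autosome. The densest windows of 10 neighbouring genes, with all 10 called, included the one on chromosome 5 from 107744795 to 108506976 with Evi5, Rpl5 and Atp5k. For larger spread in WT the densest windows held 3 of 10, one on chromosome 5 with Oasl1 and Oasl2 and one on chromosome 15 with the keratin genes Krt1, Krt4 and Krt78. The genes of these windows were named after their values were seen.

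The TATA box is a promoter motif that positions the start of transcription. A TATA box, here the letters TATAAA on the gene's strand starting 40 to 20 bases before the start site, was found in 135 (1.72%) of the 7837 tested genes with a promoter in the RefSeq table (GRCm38.p6), and in 1.99% of all 32851 promoters of 300 bases. From the quintile of genes with the smallest to that with the largest variance, the share went from 0.543 to 3.95% in KO and from 0.491 to 5.19% in WT. Among genes called with larger spread in KO it was 1.43% (46 of 3208), and among those called in WT 15.7% (11 of 70). The median ratio of observed to expected CpG was 0.774 over all, 0.79 in the former and 0.443 in the latter. The 11 were Aqp3, Cebpa, Duoxa2, Fetub, Ifi47, Ifit1bl1, Irf7, Krt10, Lor, Sprr3 and Wnt11. The 60 bases before the start site are shown for 3 of them, the squamous gene Sprr3 (chr3:92458721-92458780, minus strand), Irf7 (chr7:141266425-141266484, minus strand) and Duoxa2 (chr2:122298840-122298899, plus strand), and for 3 genes with larger spread in KO, Pgc (chr17:47726782-47726841, plus strand), Gkn2 (chr6:87373305-87373364, plus strand) and Ppia (chr11:6415807-6415866, plus strand), with the motif in capitals.
Sprr3: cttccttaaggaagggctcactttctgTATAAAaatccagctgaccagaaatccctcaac
Irf7: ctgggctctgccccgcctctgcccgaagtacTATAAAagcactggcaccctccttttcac
Duoxa2: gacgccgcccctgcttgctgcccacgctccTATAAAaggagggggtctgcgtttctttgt
Pgc: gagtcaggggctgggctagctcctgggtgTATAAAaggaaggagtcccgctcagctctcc
Gkn2: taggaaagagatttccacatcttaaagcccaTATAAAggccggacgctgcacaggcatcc
Ppia: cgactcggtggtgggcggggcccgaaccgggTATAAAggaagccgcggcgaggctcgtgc
The motif started 29 to 33 bases before the RefSeq start site in these 6 promoters. The bases shown for Irf7 lie almost wholly inside the gene span given above, which is that of GENCODE. A match describes the letters of the window only.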

How the data were processed

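RNA was extracted from gastric corpus mucosa and sequenced as single reads from stranded poly(A) libraries. The authors deposited estimated counts per GRCm38 transcript made with kallisto 0.42.4, for 94080 transcripts in 44 libraries. The 92372 transcripts paired with a gene in GENCODE vM21 were summed to 31517 genes and rounded, and the unpaired 1708 held 0.329 to 1.3% of a library's counts and were left out. Totals over all deposited transcripts were 6065084 to 21945124 counts per library, and the summed gene counts 5990116 to 21830642.

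Counts were scaled by TMM in edgeR 4.0.16 (R 4.3.3) and converted to log2 CPM with a prior count of 2. Genes with a mean of 5 CPM or more in both genotypes were kept. The absolute deviation of each library from its group mean, scaled for group size, was tested with limma 3.58.1 (trend and robust moderation), adjusted by Benjamini-Hochberg over the 10023 genes at 0.05. Within-group variances were pooled over arms. For means, the quasi-likelihood test of edgeR was used, and DESeq2 1.42.0 served as an alternative. Per-library values were permuted between genotypes within arms 100000 times, or exactly with NTZ alone. The correction for length and GC content used natural splines with 5 degrees of freedom.

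The genes, lists and members were chosen with earlier results of these data known. Genes are named by rule: the 12 called genes of smallest p in each direction with the same sign in both arms, the 10 of largest and of smallest variance in each genotype, at most 4 per list by size of the variance ratio, all reference genes, Atp4a, Atp4b, and the 5 called genes of smallest p in each direction of the other comparisons. Other genes were named after their values were seen. Sleuth, used in the study for means of transcripts, was not used here. Results for some genes are not reported here.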

Additional observations from a re-analysis of the deposited data

Results flagged for a closer look

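In the WT/NTZ group of 9 libraries, 113 named genes and values were examined for a library far from the others, and 6 had a gap to the nearest library above Dixon's critical share of the range, 0.493. Chance alone would give about 1 in 20. WT_118_WT_YF was low for Pgc (57500 CPM, next 131000, share 0.715) and for Clps, pancreatic colipase (15500 CPM, next 33800, share 0.688). WT_93_WT_YF was low for Duoxa2 (0 CPM, next 1.7, share 0.538) and Duox2 (1.86 CPM, next 11.7, share 0.568), and high for Tbp (15.8 CPM, next 12.3, share 0.499). WT_117_WT_YF was low for Rnf6, a ubiquitin ligase (34.4 CPM, next 39.4, share 0.502).

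The genotype difference in spread differed between NTZ and PEG for 4 genes by the interaction term (limma). Adjusted p was 0.0106 for Nr4a1 and for Tmem45a, 0.0193 for Gm20721, with log2 ratios of variances of -0.53 with PEG and -6.19 with NTZ, and 0.0496 for Rps15a-ps7, a pseudogene, with 1.27 and 6.25.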

How the results depend on the processing

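The direction of the main result, more genes with larger spread in KO than in WT, was the same under every alternative run. Of the genes called for spread between genotypes (4234 in both directions), the number stayed within 1.5 times under 14 alternatives, from 3207 with the group median as centre to 5074 for transcripts as deposited. It was 2594 of 5467 at a mean CPM of 20 or more, 7907 of 23602 with no filter, 1208 of 5560 where means lay within 1.5-fold, 207 with the first component removed over all libraries, 277 with it removed in each genotype, and 2781 without the 6 libraries of steepest GC slope. The share with larger variance in KO was 71.7, 68.9, 80.8, 80.1 and 64.9% with no filter, the component removed over all libraries, transcripts, without the 6 libraries, and the component removed in each genotype. Leaving out 1 library at a time gave 3910 to 4428 genes and 84.3 to 90.0%.

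With the group median as centre, calls were 1367 with PEG and 0 with NTZ, between NTZ and PEG in KO, in WT and for the interaction (limma, with 2241, 624, 138 and 264 genes at an unadjusted p under 0.05). At a mean CPM of 20 or more they were 2084, 982, 25, 0 and 0 in the same order, and 4657 for the mean. With the length and GC correction they were 1966 with PEG and 5 between NTZ and PEG in WT, and the first component held 44.4% of the KO variance. Over the 500 genes of largest variance it held 40.3% in WT. Leaving out 1 library at a time gave 2253 to 3613 calls with PEG, 766 to 2058 with NTZ, 15 to 90 between NTZ and PEG in KO, 0 to 16 in WT and 0 to 5 for the interaction.

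The difference in mean absolute deviation (KO minus WT, log2 CPM) turned direction for some named genes. With the component removed over all libraries it was -0.05 for mt-Co3, -0.08 for mt-Co1, -0.01 for Dcn, -0.02 for Lum, -0.04 for Jund, -0.002 for Junb and -0.005 for Eef2. With the length and GC correction it was 0.02 for Patj. With the component removed in each genotype it was -0.02 for Ndst1, -0.05 for Kif13b, 0.26 for Krt13, 0.27 for Krt4, 0.19 for Krt1, 0.58 for Sprr3, 0.72 for Asprv1, -0.01 for mt-Co3, -0.09 for mt-Co1, -0.05 for mt-Nd4l, -0.04 for Rpl27a, -0.12 for Jund, -0.01 for Junb, -0.03 for Gapdh, -0.04 for Ppia and -0.05 for Rplp0. The causes were not tested. Of the named genes called for spread, 101 were called in every fit with 1 library left out and 25 lost the call in at least 1, and 34 lost it with the group median as centre.

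The alternatives of length and GC correction, protein-coding genes alone, removal in each genotype and leaving out the 6 libraries were chosen after the data were seen. No paired analysis was possible because the groups share fewer than 2 replicate numbers. Depth limits the spread of low genes, which holds counting error as well as differences between mice.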
